A study of Rattus norvegicus with 2 samples.

Results

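The genes described here encode the subunits of the hypoxia-inducible factor (HIF) and the proteins that couple it to oxygen. They were taken by name: the alpha subunits Hif1a, Epas1 and Hif3a, the beta subunits Arnt and Arnt2, the ubiquitin ligase receptor Vhl, the prolyl hydroxylases Egln1, Egln2 and Egln3, and the asparaginyl hydroxylase Hif1an. Every probe set that the array's annotation assigned to exactly 1 of these 10 genes was used. There were 12 such probe sets for 9 genes, among 20826 probe sets naming 1 gene and 14217 genes in all. Epas1, Arnt2 and Egln1 had 2 probe sets each and 6 genes had 1, while Hif1an was named by 0 probe sets and is not analysed here. RNA came from Sprague Dawley rat microglia, the brain's own macrophages, grown in DMEM with serum. Resting cells (1 array) were set against cells kept for 3 h without oxygen and glucose (oxygen-glucose deprivation, OGD), which models ischaemia in culture (1 array). The labels give no age and no other allele or agent for either group. With 1 array per group there was no replicate, so no value below has an error across cultures and no difference has a test.

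HIF is a dimer of an alpha and a beta subunit that binds DNA and turns on genes of glycolysis, oxygen supply and cell survival. In oxygenated cells the EGLN enzymes, dioxygenases that use oxygen, iron and 2-oxoglutarate, hydroxylate prolines of the alpha subunit, and VHL then marks it for degradation, while HIF1AN hydroxylates an asparagine and blocks coactivator binding. When oxygen is short the alpha subunit is spared and enters the nucleus, so the pathway is known mainly for control of the protein, which expression arrays do not measure. Several of its own genes, among them Egln1 and Egln3, are known targets of HIF in many tissues. In macrophages and microglia HIF is known for its part in glycolytic and inflammatory responses.

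HIF binds a short core that reads ACGTG or GCGTG. Both cores were searched on both strands of the RefSeq promoter windows (assembly GRCr8, 250 bases before to 50 after a gene's start), 11 windows covering all 10 genes. Of these, 4 windows, 1 each of Hif1a, Hif3a, Arnt and Egln1, held at least 1 core. Over all 33469 windows 41.6% held either core, 19.3% ACGTG and 29.7% GCGTG. The promoters of Hif1a and Egln1 are shown as those whose window held ACGTG, and that of Epas1 because it encodes the other alpha subunit above the array median. Capitals mark the cores on either strand, and each sequence runs 5′ to 3′ on the gene's strand. In the Hif1a window (chr6:98359648-98359947, plus strand) matches began at positions 22, 23 and 87, counted from 1 at the 5′ end, the first of them on the opposite strand and overlapping the next in a palindrome. In the Egln1 window (chr19:69804632-69804931, minus strand) GCGTG began at position 195 and ACGTG at position 253, and the Epas1 window (chr6:13624680-13624979, minus strand) held 0 matches. A match is a run of letters and was not tested as a binding site.
Hif1a: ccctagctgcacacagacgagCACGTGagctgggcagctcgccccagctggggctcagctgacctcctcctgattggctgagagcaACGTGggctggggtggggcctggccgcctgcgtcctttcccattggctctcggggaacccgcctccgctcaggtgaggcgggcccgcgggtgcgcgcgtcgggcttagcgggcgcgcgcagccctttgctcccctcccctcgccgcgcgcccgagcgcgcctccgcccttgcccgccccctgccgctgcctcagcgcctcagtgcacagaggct
Egln1: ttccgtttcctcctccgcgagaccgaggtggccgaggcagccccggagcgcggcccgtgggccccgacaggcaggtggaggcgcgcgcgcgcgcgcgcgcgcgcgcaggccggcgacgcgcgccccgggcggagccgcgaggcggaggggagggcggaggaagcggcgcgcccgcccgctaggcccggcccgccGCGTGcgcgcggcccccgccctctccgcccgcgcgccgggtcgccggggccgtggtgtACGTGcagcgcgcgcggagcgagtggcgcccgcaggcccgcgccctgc
Epas1: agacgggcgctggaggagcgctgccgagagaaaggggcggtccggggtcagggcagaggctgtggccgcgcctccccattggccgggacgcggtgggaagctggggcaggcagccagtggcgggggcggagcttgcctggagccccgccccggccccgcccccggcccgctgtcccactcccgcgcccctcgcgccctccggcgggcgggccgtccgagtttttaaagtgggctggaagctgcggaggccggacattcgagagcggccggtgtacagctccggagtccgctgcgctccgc

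The deposited values are intensities on a linear scale. The median of all probe sets outside the array controls, 19.6 at rest and 19.7 after OGD, served as the reference level, and a probe set above it on at least 1 array is called measured. Intensities depend on the probes as well as on the transcript, so levels are given against this median and not compared between genes. Of 14 microglia and macrophage markers with a probe set, 13 were measured, with Trem2 at 604.2, Cd68 at 370.7 and Itgam at 60.9 at rest as the 3 brightest. Other microglia markers were close to the median, among them Cx3cr1 at 31.6, C1qc at 26.3, Tmem119 at 23.3 and Csf1r at 21.9 at rest, and Csf1r was under it after OGD (19.3). Fcer1g was under the median on both arrays (15.8 and 16.6). Of 7 astrocyte markers 3 were measured, as were 3 of 6 oligodendrocyte, 1 of 6 neuron and 2 of 6 endothelial or fibroblast markers. The astrocyte markers Aqp4, Aldh1l1, S100b and Slc1a3 were under the median on both arrays. The 3 brightest markers at rest were Gfap (27.4), Slc1a2 (23.8) and Gja1 (22.1) for astrocytes and Sox10 (39.1), Mbp (30.5) and Cspg4 (21.1) for oligodendrocytes. Neuron markers had Syn1 at 48.1, and Vwf at 46.3 and Col1a1 at 41.9 were the measured endothelial and fibroblast markers.

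**Figure D1:**
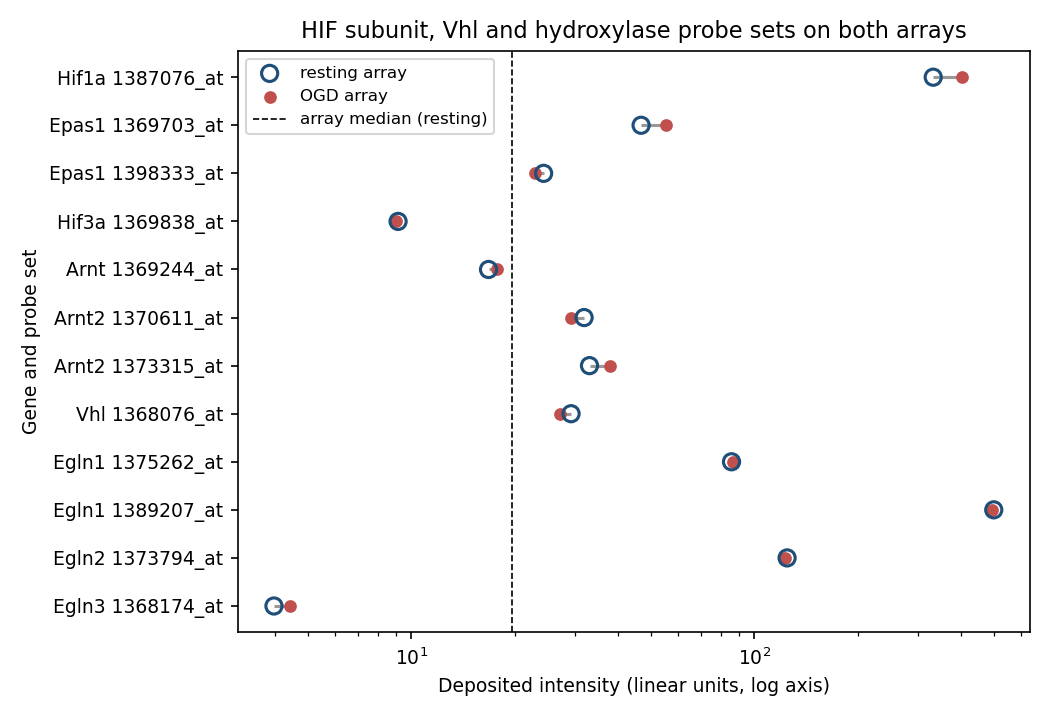
Deposited intensity (log axis) of each of the 12 probe sets on the resting array (open circles) and the OGD array (filled circles), 1 array each, with the resting array median of 19.6 as a dashed line. The markers lie close together in every row; the widest gap, for Hif1a, is 332.2 against 403.8, and the probe sets of Hif3a, Arnt and Egln3 lie left of the line on both arrays.

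Among the alpha subunits, Hif1a, which encodes the broadly expressed oxygen-labile subunit, was detected by probe set 1387076_at at an intensity of 332.2 at rest and 403.8 after OGD. It was higher on the OGD array by 0.28 on the log2 scale, or 1.22-fold, the largest difference among the 12 probe sets. At rest it stood 16.9-fold above the array median, at percentile 95.8 of all probe sets. Of all 12231 measured probe sets naming 1 gene 6.63% differed by at least as much in either direction, and 3.18% were higher by at least as much. Of the 1358 within 2-fold of its own level 1.40% were higher by at least as much. Spread between probe sets of the same gene, the only error these arrays offer, had a pooled SD of 0.147 over 1902 genes. Hif1a has 1 probe set, so its difference has no second measurement. In RNA from a whole culture, more cells of a type and more RNA per cell cannot be told apart. Over the same arrays 12 of the 13 measured microglia markers were lower after OGD, beside 51.3% of all measured genes. The exception was C1qc. By the brightest probe set of each marker, the median difference of these 13 was -0.10, smaller in size than the SD of 0.147, and the lowest was -0.26. Another probe set of Aif1, above the median on both arrays, had -0.35, against -0.04 for its brightest. The summed intensity over the microglia list was 1421.6 at rest and 1363.9 after OGD. Trem2 (604.2 and 582.6) and Cd68 (370.7 and 359.7) made up most of these sums. The difference of Cx3cr1, -0.08, is an example of a size that recurs exactly in many other probe sets. Such sharing was found in 57.9% of probe sets with unequal values above the median on both arrays. It was not counted for the other markers. All 3 measured astrocyte markers were higher (Gfap 27.4 and 36.9, Slc1a2 23.8 and 32.0, Gja1 22.1 and 24.3). Of all measured genes 42.8% were higher. With the reference level at the 30th percentile 5 astrocyte markers were higher and 1 lower, and at the 70th 0 were measured. The sum over the astrocyte list was 117.6 at rest and 139.5 after OGD. Each sum given here also counts the genes of its list that were under the median. Both measured endothelial and fibroblast markers were higher too (Vwf 46.3 and 56.4, Col1a1 41.9 and 48.4), with sums of 121.2 and 142.3. The measured neuron marker Syn1 read 48.1 and 56.8, with sums over the list of 104.0 and 113.8. Of the oligodendrocyte markers Mbp was higher (30.5 and 35.7) and Sox10 and Cspg4 were lower, with sums of 132.8 and 133.9. The part of these differences in the values of Hif1a, and of Epas1 and Arnt2 described next, was not tested.

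Epas1, which encodes the alpha subunit HIF2A known from endothelium and myeloid cells, gave a split reading. Probe set 1369703_at read 46.7 at rest and 55.4 after OGD, a log2 difference of 0.25 (1.19-fold higher), and stood 2.38-fold above the array median at rest. Of all measured probe sets 10.4% differed by at least as much in either direction. Probe set 1398333_at read 24.3 and 23.0, a log2 difference of -0.08, only 1.24-fold above the median at rest. The probe sets thus pointed in opposite directions, with a mean difference of 0.08 and an SD of 0.23 between them. A gap as wide as theirs, 0.33, was found in 12% of the 1490 genes with 2 probe sets above the median on both arrays, and 42.8% of those genes had opposite signs. The value of -0.08 recurs to 7 decimals, in size, in 232 other probe sets.

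Hif3a, whose shorter protein forms can restrain HIF, was under the median on both arrays, at 9.15 at rest and 8.99 after OGD, 0.47-fold and 0.46-fold of the median. Its log2 difference of -0.02 is printed only as the files give it, since values under the median have no measured order here. These cells therefore gave a reading above the median for Hif1a and Epas1 and not for Hif3a.

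Of the beta subunits, Arnt, the general partner of all alpha subunits, read 16.8 at rest and 17.7 after OGD, just under the median on both arrays at 0.86-fold and 0.90-fold of it. Its log2 difference as deposited was 0.08. With the reference level at the 30th percentile in place of the median Arnt counted as measured, with the same difference. Arnt2, a close relative of Arnt best known from neurons, was above the median in both of its probe sets. Probe set 1370611_at read 31.9 at rest and 29.3 after OGD (log2 difference -0.12), and probe set 1373315_at read 33.1 and 37.9 (0.20). They read nearly alike at rest and differed in opposite directions after OGD, with a mean of 0.04 and an SD of 0.23, so no direction can be given for Arnt2. A gap as wide was found in 12.8% of genes with 2 probe sets.

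The prolyl hydroxylases were close to equal on both arrays wherever they were measured. Egln1 encodes PHD2, the main oxygen sensor for HIF1A in most cells. Its probe set 1389207_at read 498.7 at rest and 491.2 after OGD (log2 difference -0.02) and probe set 1375262_at read 85.8 and 86.9 (0.02). At rest these stood 25.4-fold and 4.37-fold above the median, at percentiles 97.2 and 85.9. Both differences were within 1.02-fold, and the SD between them was 0.03, the narrowest of the 3 genes with 2 probe sets; 84.8% of such genes had a gap at least as wide. Egln2, which encodes PHD1, read 124.6 at rest and 123.2 after OGD in probe set 1373794_at (log2 difference -0.02), 6.35-fold above the median at rest. After quantile normalization or removal of a loess trend, the differences of probe set 1389207_at of Egln1 were 0.007 and 0.01 and that of Egln2 after loess was 0.004, so the signs of these small values have no meaning.

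Egln3 encodes PHD3, the hydroxylase known for strong induction by hypoxia in many cell types. Its probe set 1368174_at read 3.98 at rest and 4.42 after OGD, at percentiles 3.17 and 5.60 of all probe sets, about 0.20-fold and 0.22-fold of the median. The deposited log2 difference was 0.15. Among probe sets naming 1 gene that were under the median on both arrays, 42.1% differed by at least as much in either direction. Egln3 was therefore not above the array median in either culture.

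Vhl, the substrate receptor that recognises the hydroxylated alpha subunit, read 29.2 at rest and 27.2 after OGD in its probe set 1368076_at, a log2 difference of -0.11. It stood 1.49-fold above the median at rest. Of all measured probe sets 23.9% were lower by at least as much, and the same size of difference recurs to 7 decimals in 72 others.

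Altogether 9 probe sets of 6 genes were measured, all 9 on both arrays, and 3 probe sets of 3 genes (Hif3a, Arnt and Egln3) were not. Of the 9, 4 were higher and 5 lower on the OGD array, against 43.7% higher and 50.3% lower over all measured probe sets, the remainder being equal. Their median log2 difference was -0.02, against -0.003 over all measured probe sets, and 3 of the 9 (Hif1a and 1 each of Epas1 and Arnt2) differed by more than the SD of 0.147 between probe sets of a gene, which 30.9% of all measured probe sets also did. The study's own threshold, given in its design text, is 1.5-fold. The members past it numbered 0 higher and 0 lower, and over all measured probe sets 0.0899% were past it on the higher side and 0.0736% on the lower side. At 1.2-fold 1 member probe set, that of Hif1a, was higher and 0 were lower, beside 3.89% and 4.21% of all measured probe sets. The median of the members changed sign under 7 of 11 alternatives and lay between -0.02 and 0.09.

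**Figure D2:**
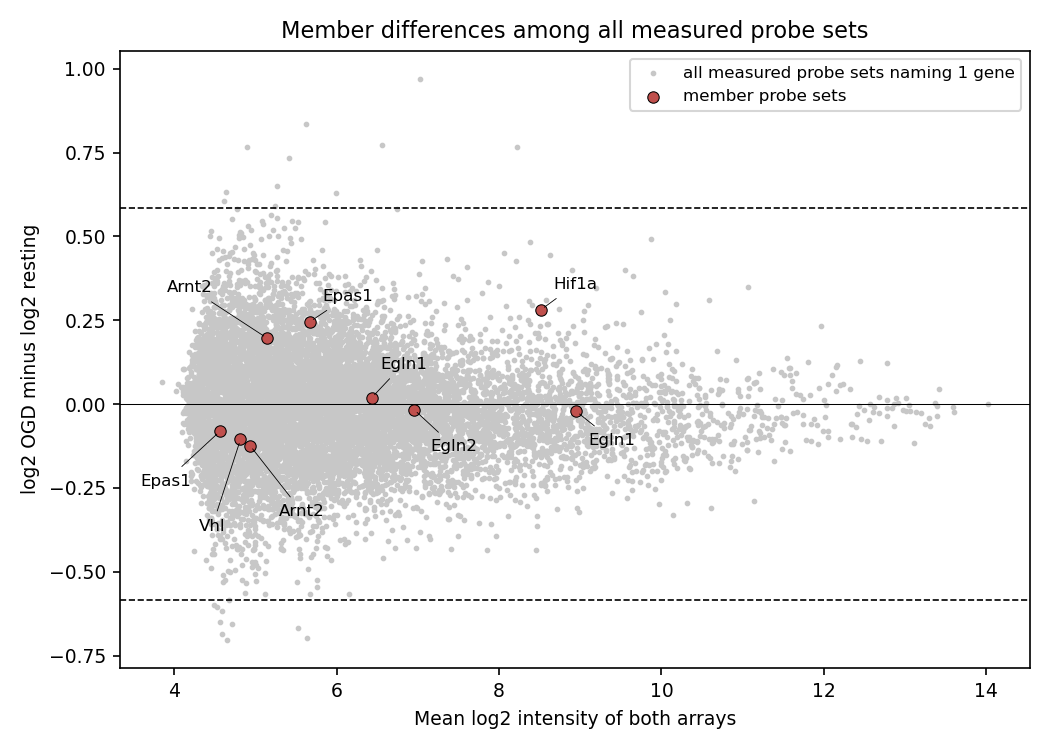
Difference (log2 OGD minus log2 resting) against mean log2 intensity for the 12231 measured probe sets naming 1 gene (grey) and the 9 measured member probe sets (red, labelled by gene). Dashed lines mark 1.5-fold in either direction; all 9 members lie between them, with Hif1a at 0.28 on the upper edge of the cloud at its level, and the paired points of Epas1 and of Arnt2 lie on opposite sides of 0.

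Other genes of the pathway were described by the brightest probe set of each gene. Of 68 listed genes 60 had a probe set and 47 were measured, with 20 higher, 22 lower and 5 equal on the OGD array and 0 past 1.5-fold in either direction, beside 0.0731% higher and 0.0418% lower of all 9580 measured genes at that threshold. The median over all measured genes was -0.008. Of the partners of VHL in its ubiquitin ligase (the elongins, the scaffold Cul2, the RING protein Rbx1, Nedd8 and conjugating enzymes), 8 of 9 were measured and all 8 were lower on the OGD array, with a median of -0.05. After quantile normalization 2 of these 8 were higher and 1 was equal, and after removal of a loess trend 3 were higher, with medians of -0.03 and -0.02. Cdc34 was counted as lower at -0.03, although its other measured probe sets had -0.12 and 0.03. The conjugating enzyme gene Ube2d1 read 181.5 at rest and 158.1 after OGD (-0.20), Elob read 1438.6 and 1332.3 (-0.11), and Cul2 read 27.9 and 26.3 (-0.08). Over all measured genes 51.3% were lower.

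Regulators of the stability of the alpha subunits or of the hydroxylases, such as chaperones, other ubiquitin ligases and deubiquitinases, had 9 of 14 genes measured, 4 higher, 4 lower and 1 equal, with a median of 0. Usp20, a deubiquitinase that acts on HIF1A, read 113.3 at rest and 126.7 after OGD (0.16), although its other measured probe set had -0.08. Siah1, a ligase of the hydroxylases, read 90.6 and 82.8 (-0.13), and Stub1, a chaperone-linked ligase, read 393.8 and 373.8 (-0.08). Siah2 was under the median on both arrays. Of the coactivators and their competitors 7 of 10 were measured, 4 higher, 2 lower and 1 equal, with a median of 0.03. Crebbp was counted as higher at 0.06, although its other measured probe set had -0.20. Ncoa2, a nuclear receptor coactivator, read 38.1 at rest and 26.8 after OGD, 1.42-fold lower and the widest difference in these lists, from 1 probe set. Ncoa3, of the same family, read 69.8 and 77.6 (0.15). Cited2, which competes with HIF1A for the coactivators Crebbp and Ep300, read 638.5 and 702.0 (0.14), and its other probe set had 0.01.

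Relatives of the HIF subunits in the bHLH-PAS family had 4 of 11 genes measured, and all 4 were higher on the OGD array, with a median of 0.13, beside 42.8% higher of all measured genes. This count depended on the floor: it was 5 higher and 1 lower at the 30th percentile, and 6 higher and 4 lower with no floor. Clock, a circadian transcription factor, read 113.4 at rest and 148.3 after OGD, 1.31-fold higher. This was the brightest of its 4 probe sets, and no other was above the median on both arrays. Bmal2 read 20.6 and 22.8 (0.15), close to the median of 19.6, and Ahr, the aryl hydrocarbon receptor that also pairs with ARNT, read 35.3 and 37.9 (0.10). With the reference level at the 70th percentile Clock was the only one left, at 0.39. Other hydroxylases and demethylases that use oxygen had 19 of 24 genes measured, 8 higher, 8 lower and 3 equal, with a median of 0. The DNA demethylase gene Tet2 read 19.7 at rest and 23.9 after OGD (0.28), just above the median at rest. The histone demethylase genes Kdm5c and Kdm4d read 101.0 and 84.8 (-0.25) and 51.3 and 43.3 (-0.24). P4htm, a membrane-bound prolyl hydroxylase related to the EGLN enzymes, was under the median on both arrays at 17.0 and 17.5.

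**Figure D3:**
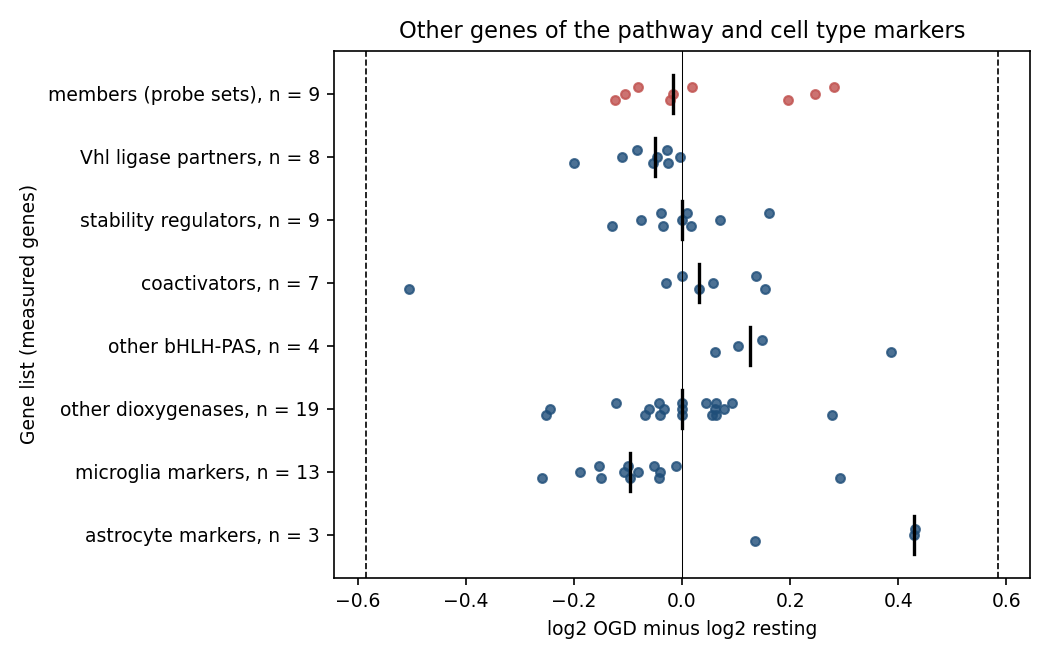
Difference (log2 OGD minus log2 resting) of each measured gene in the lists of other pathway genes and of microglia and astrocyte markers, with the 9 member probe sets in the top row; points are single genes (probe sets in the top row), black bars are medians and dashed lines mark 1.5-fold. All points lie between the dashed lines, with the Vhl ligase partners at a median of -0.05, the other bHLH-PAS genes at 0.13 and Ncoa2 farthest to the left at -0.51.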

How the data were processed

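Total RNA from 1 resting and 1 OGD culture was labelled with biotin through oligo(dT)-primed cDNA and hybridised to an Affymetrix rat array, per the labels' protocols. The deposited values are intensities, 1 per probe set and array. Their linear scale was read from the values; how the authors corrected background, summarised probes and scaled the arrays was not stated in the labels or files, and if the arrays were scaled to each other, a shift shared by most genes cannot be seen.

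Of 31099 probe sets, 57 controls were set aside and 20826 named 1 gene. Of these, 20758 were matched by Entrez ID to RefSeq GRCr8 and were given its symbol, whether or not it differed. No other filter was applied. Values under the array median were set to it before differences were counted at 1.5-fold; single probe sets are given as deposited. Each gene of a list was represented by its brightest probe set. Named from each list were up to 3 genes with the largest absolute difference above the median on both arrays, and the 3 brightest markers; C1qc, Cx3cr1, Tmem119, Csf1r and the markers and list genes under the median, among them Siah2 and P4htm, were named after their values were seen. Ep300 is named as background only. Crebbp is named as background and, after its values were seen, for the conflict between its probe sets. Cdc34 and Aif1 were also named after their values were seen, for differences between their probe sets. The members and lists were chosen with earlier results of these data known. Shares among probe sets of like level and the count of recurring differences were added after the values were seen. With 2 arrays no likeness of pattern between genes can be measured. The number of arrays limits the precision.

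On simulated arrays with 100 probe sets made 2-fold higher and 100 made 2-fold lower, all at least 4-fold above the median, 100 and 100 were called. The simulated array was the resting array with added noise smaller than the spread of the real differences (SD 0.152). This checks the counting only and does not bear on differences as small as those of the members. Alternatives were other floors, scalings (loess span 0.3), a pseudocount, probe set filters and thresholds. Python 3.11.15, numpy 2.4.6, pandas 2.3.3 and statsmodels 0.14.6 were used.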

Additional observations from a re-analysis of the deposited data

How the results depend on the processing

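No paired analysis was possible because each group has 1 array. The count of member probe sets past the threshold was 0 higher and 0 lower under every floor, scaling, pseudocount and filter tried and at 2-fold; at 1.2-fold it was 1 higher and 0 lower. The difference of Hif1a lay between 0.28 and 0.31 and that of the brighter Epas1 probe set between 0.21 and 0.25 over 9 alternatives each. Each other measured member probe set moved by less than the SD of 0.147 between probe sets of a gene under 8 or 9 alternatives, with sign changes for Egln2 (1) and for a probe set of Egln1 (2). The 5 list medians moved by less than that SD, except that of the bHLH-PAS list, 0.387 with the floor at the 70th percentile, where 1 gene was left. That floor left 5 member probe sets of 4 genes and the 30th percentile left 10 of 7. A level under the array median is the limit for Hif3a, Arnt and Egln3, and Arnt stood just under it.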

Other observations

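Many differences between these arrays recur exactly. Of 28341 probe sets with unequal values, 71.0% shared the size of their log2 difference with at least 1 other probe set to 7 decimals, and 23.0% shared it with at least 50 others. There were 10896 distinct nonzero sizes. The most common nonzero size, 0.079 (1.06-fold), was found in 245 probe sets, and 2701 probe sets had equal values on both arrays. Sharing was found in 84.3% of probe sets under the median on both arrays, 57.9% of those above it on both and 44.5% of those at or above the 75th percentile of mean level. Among the 12 probe sets of HIF and hydroxylase genes 5 shared their size, namely those of Hif3a (with 5 others), Arnt (36) and Vhl (72), probe set 1398333_at of Epas1 (232) and 1370611_at of Arnt2 (3). The resting intensity of Arnt was also found in 38 other probe sets. The differences of Hif1a, of the brighter Epas1 probe set, and of Egln1, Egln2 and Egln3 were not shared. The reason for the recurrence was not tested.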
